A study of Mus musculus with 18 samples.

Results

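The cytokine mRNA decay factors examined here are 8 genes, out of 13598 genes with a value in the deposited files, whose proteins bind or cut inflammatory transcripts. The 8 were taken by symbol for their known roles, with earlier results of these data known: the AU-rich element binding proteins Zfp36, Zfp36l1 and Zfp36l2, the ribonucleases Zc3h12a, Zc3h12c and N4bp1, and the stem-loop binding proteins Rc3h1 and Rc3h2. RNA-seq was carried out on peritoneal macrophages, elicited with thioglycolate, from mice of 3 genotypes (TLR4-WT, TLR4-K730R and TLR4-K810R), either mock-treated or given 100 ng/ml LPS for 6 h, in 18 libraries that form 6 groups of 3. TLR4 is the receptor for LPS, and in each mutant line, made by CRISPR/Cas9 on the C57BL/6 background, the named lysine in its intracellular TIR domain is an arginine. The age of the animals is not stated for these libraries, and the labels do not say whether the 3 libraries of a group came from separate mice, so p-values measure only the spread between libraries, which may be technical.

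Inflammatory cytokine transcripts are short-lived because elements in their 3′ untranslated regions recruit decay factors. Tristetraprolin (Zfp36) and its relatives Zfp36l1 and Zfp36l2 bind AU-rich elements and bring in the CCR4-NOT deadenylase. Regnase-1 (Zc3h12a) and its relative Regnase-3 (Zc3h12c) are endoribonucleases, and Regnase-1 cuts stem-loops in transcripts such as Il6. N4BP1 is a further ribonuclease that limits cytokine output downstream of some Toll-like receptors. Roquin-1 (Rc3h1) and Roquin-2 (Rc3h2) bind the stem-loop known as the constitutive decay element. In LPS-stimulated macrophages, tristetraprolin and Regnase-1 act as negative feedback on cytokines that TLR4 induces.

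Matches to the known binding letters of these factors are shown for cytokine and regulator transcripts that rose after LPS in these macrophages, and for Rc3h1, which was not called. In the AU-rich group, capitals mark the letters TATTTAT, the core of the tristetraprolin site, written as DNA and 5′ to 3′ on the strand of the gene.
Tnf: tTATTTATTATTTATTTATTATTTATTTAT
Il1b: cacttaccTATTTATTTATgTATTTATtga
Cxcl1: TATTTATTTATgTATTTATTTATtccacaa
These windows lie in the annotated 3′ untranslated regions at chr17:35199678-35199707 (minus strand), chr2:129364804-129364833 (minus strand) and chr5:90892610-90892639 (plus strand) of GRCm38. Counting overlapping matches on the transcript strand, the Tnf region held 8 copies of TATTTAT, the Il1b region 3 and the Cxcl1 region 6. Of 21020 annotated 3′ untranslated regions, 27.58% held at least 1 copy.

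Capitals in the next group mark TTCNNNGAA, where N is any base and the outer letters can pair as the stem that Roquin binds.
Tnf: acagacatgttTTCTGTGAAaacggagctg
Ier3: tagtatgtatgTTCTGTGAAcacgaataaa
Nfkbiz: atgtaagttgtTTCTATGAAacaaacccat
Rc3h1: atttgtttttgTTCTGTGAAtgaactttat
They lie at chr17:35199578-35199607 (minus strand), chr17:35822866-35822895 (plus strand), chr16:55812607-55812636 (minus strand) and chr1:160968031-160968060 (plus strand), all in annotated 3′ untranslated regions. The letters TTCNNNGAA occurred in 33.85% of all 3′ untranslated regions, so a match is a description of the sequence and not evidence of a site. The last window belongs to a decay factor itself: the Rc3h1 region, 7181 bases long, held 7 such matches and 2 copies of TATTTAT. Among the 8 decay factors, 6 held TATTTAT in their own 3′ untranslated region, with 3 copies each in Zfp36, Zfp36l1, Zfp36l2 and Rc3h2 and 2 each in Rc3h1 and Zc3h12c, whereas Zc3h12a and N4bp1 held 0. Longer regions hold more matches: TATTTAT occurred in 19.69% of regions about as long as that of Zfp36 (774 bases), against 60.85% at the length of Zc3h12c, 69.21% at that of Rc3h2 and 78.47% at that of Rc3h1. At the length of Rc3h1, 88.52% held TTCNNNGAA.

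The deposited values are FPKM of transcript events, such as a first or a last exon, without read counts. Depth is therefore unknown and counting intervals cannot be given. The level of a gene in a library was the FPKM summed over its first exons or over its last exons, whichever was larger, from events on its own strand that overlapped its annotated span. FPKM is a value per length of transcript, which allows levels to be compared between genes. A gene was tested where 3 or more libraries reached 1 FPKM, which left 9707 genes, with limma on log2(FPKM + 1), and a gene was called at an adjusted p below 0.01. Differences are on that log2 scale, on which changes of low genes come out too small, and are given with their standard error (SE).

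Of the 8 decay factors, 5 had levels that passed this filter: Zc3h12a, Zc3h12c, N4bp1, Rc3h1 and Rc3h2. For Zfp36 (chr7:28376784-28380253, minus strand) events were listed under its identifier only 6 times over all libraries, each time on the opposite strand, at up to 2.95 FPKM. For Zfp36l1 no event was listed. Zfp36l2 (chr17:84183931-84187947, minus strand) had 1 event on its own strand, a first exon at 35.0 FPKM in 1 library only, TLR4-K810R mock replicate 2. Events on the other strand were listed for it 7 times over all libraries. These 3 AU-rich element binding proteins are therefore not analysed here, and a listing of 0 for them is not a measure of their expression.

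The libraries resembled macrophages. Lyz2, which encodes the lysozyme of macrophages, lay between 5944 and 13291 FPKM in every library, and Adgre1, which encodes the macrophage surface marker F4/80, between 148 and 271, while the T cell gene Cd3e did not exceed 0.0172 FPKM. Of 8 macrophage genes listed, Itgam had no value, Cd14 ranged from 0 to 463 FPKM and Mertk from 5.03 to 32.2 FPKM. Correlations between libraries of 1 group, across genes, were 0.961 to 0.975. The summed level of 7 macrophage genes, most of it Lyz2, was 11633 to 14785 FPKM without LPS and 7289 to 10057 FPKM with LPS. Of 6 tested, 1, 1 and 2 were called higher with LPS in TLR4-WT, TLR4-K730R and TLR4-K810R, and 4, 4 and 1 lower. Over all genes 10.4%, 9.32% and 9.08% were called higher and 23.9%, 26.5% and 19.7% lower. After median-of-ratios scaling of the libraries 1, 2 and 2 were called higher and 1 lower in each genotype. The shares of all genes were then 15.4%, 15.3% and 12.3% higher and 14.2%, 13.5% and 11.7% lower. Without LPS, the level of Tlr4 was 11.7 ± 2.41 FPKM (SD, n = 3) for TLR4-WT, 10.4 ± 1.46 for TLR4-K730R and 12.5 ± 1.23 for TLR4-K810R, and it was not called in any comparison of a mutant with TLR4-WT. The mutations change a codon, so a level of Tlr4 does not check the genotype labels.

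LPS raised the mRNA of all 3 measured ribonucleases in each genotype, and neither Roquin gene was called. Among the 9707 genes tested, 34.3% were called in TLR4-WT after LPS, 10.4% higher and 23.9% lower. For TLR4-K730R 35.8% were called, 9.32% higher and 26.5% lower, and for TLR4-K810R 28.8% were called, 9.08% higher and 19.7% lower. Against this background, 3 of the 5 tested decay factors were called in each genotype, all 3 of them higher. The median difference over the 5 was 1.41 (TLR4-WT), 1.19 (TLR4-K730R) and 1.15 (TLR4-K810R), beside -0.28, -0.36 and -0.26 over all genes tested.

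**Figure D1:**
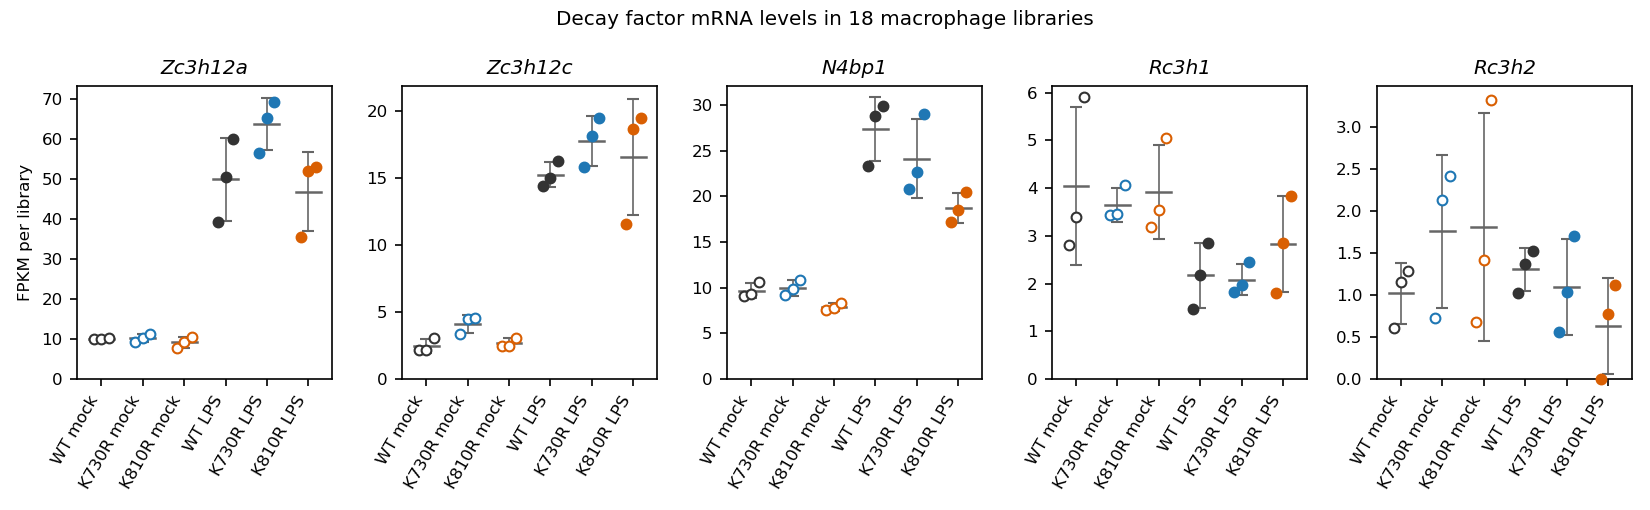
Level of each measured decay factor in FPKM (linear axes from 0, a separate scale per gene) in the 6 groups, with open points for mock-treated and filled points for LPS-treated libraries. Horizontal lines are means and bars are SD over 3 libraries, cut at 0. Every LPS-treated library lies above every mock-treated one for Zc3h12a, Zc3h12c and N4bp1. The Rc3h1 and Rc3h2 points of both treatments mix, except for Rc3h1 in TLR4-K730R.

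Zc3h12a (ENSMUSG00000042677, chr4:125118423-125127840, minus strand), the gene of Regnase-1, was the most abundant measured decay factor by mean level in all 6 groups. In mock-treated TLR4-WT macrophages its level was 9.94, 10.02 and 10.1 FPKM, and with LPS it was 39.1, 50.4 and 59.9 FPKM. In TLR4-K730R it was 9.31, 11.2 and 10.2 FPKM without LPS and 69.1, 65.3 and 56.5 FPKM with LPS. In TLR4-K810R it was 7.71, 10.4 and 9.29 FPKM without LPS and 52.0, 35.4 and 53.0 FPKM with LPS. The mock-treated libraries were tightly grouped in TLR4-WT, the LPS-treated libraries were spread, and the lowest LPS-treated library of all, TLR4-K810R replicate 2, still lay well above every mock-treated one. The ratio of group means was 4.97 (TLR4-WT), 6.21 (TLR4-K730R) and 5.12 (TLR4-K810R). On the log2 scale the rise was 2.18 (SE 0.170, adjusted p = 3.74e-08, limma) in TLR4-WT, 2.52 (adjusted p = 6.39e-09) in TLR4-K730R and 2.22 (adjusted p = 3.31e-08) in TLR4-K810R. Among called genes ordered by the size of their rise it stood at place 255 of 1012 in TLR4-WT, 198 of 905 in TLR4-K730R and 232 of 881 in TLR4-K810R.

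Its first exon (chr4:125127767-125127840) and its last exon (chr4:125118423-125120144) were each listed in all 18 libraries and gave nearly the same level. The first exon ranged from 7.60 to 11.04 FPKM over the 9 mock-treated libraries and from 35.3 to 68.9 FPKM over the 9 LPS-treated ones. The last exon ranged from 7.71 to 11.2 and from 35.4 to 69.1 FPKM. Events of 1 gene often carry the same FPKM in these files, so the exons are not separate measurements.

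Zc3h12c (ENSMUSG00000035164, chr9:52111344-52168572, minus strand), the gene of Regnase-3, was less abundant than Zc3h12a in all 6 groups and also rose in each genotype. In TLR4-WT it was 2.14, 2.15 and 3.05 FPKM without LPS and 14.5, 16.3 and 15.01 FPKM with LPS. In TLR4-K730R it was 3.33, 4.57 and 4.46 FPKM without LPS and 19.5, 18.1 and 15.8 FPKM with LPS. In TLR4-K810R it was 3.09, 2.46 and 2.46 FPKM without LPS and 19.5, 11.6 and 18.7 FPKM with LPS. The groups with and without LPS did not overlap in any genotype, a separation seen for 55% (TLR4-WT), 58.8% (TLR4-K730R) and 52.5% (TLR4-K810R) of all genes tested. The same TLR4-K810R replicate 2 that was lowest for Zc3h12a was also the lowest LPS-treated library here. The rise was 2.25 (SE 0.177, adjusted p = 4.41e-08) in TLR4-WT, 1.88 (adjusted p = 3.12e-07) in TLR4-K730R and 2.23 (adjusted p = 5.26e-08) in TLR4-K810R. The ratio of group means was 6.24, 4.33 and 6.22, respectively.

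The first exons of Zc3h12c were listed at 4 positions, and most of their FPKM after LPS came from positions upstream of the annotated gene. The first exon at the annotated start (chr9:52168502-52168572) was listed in all 18 libraries, at 0.304 to 2.40 FPKM without LPS and 1.86 to 5.60 FPKM with LPS. A further first exon at chr9:52168804-52169051, which begins 479 bases upstream of the annotated start, ranged from 0 to 1.75 FPKM without LPS and from 1.80 to 4.93 FPKM with LPS. The farthest one, at chr9:52172410-52172541, begins 3969 bases upstream of the annotated start. It was listed in 4 of 9 mock-treated libraries, at no more than 2.26 FPKM, and in 9 of 9 LPS-treated libraries, at 4.74 to 10.7 FPKM. None of the 3 TLR4-K810R mock-treated libraries listed it, and after LPS it was 8.95 ± 1.04 FPKM (SD, n = 3) there, beside 9.06 ± 1.46 in TLR4-K730R and 5.67 ± 0.922 in TLR4-WT.

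Across genotypes the farthest first exon had a mean of 7.89 FPKM with LPS and 0.641 without. The exact two-sided permutation test, with libraries rearranged within each genotype, gave p = 0.00025 over 8000 arrangements (0.000667 after adjustment over the 8 tests of this family), which is the smallest value that the design allows. The exon 479 bases upstream and the one at the annotated start gave the same p. As a share of all first-exon FPKM of the gene, the farthest exon held 48.0% on average with LPS and 21.9% without, a difference that did not reach the threshold by the same exact permutation test (p = 0.052, adjusted 0.104). The direction was not shared by the genotypes: the mean share went from 53.2% without LPS to 37.2% with LPS in TLR4-WT, from 12.3% to 50.8% in TLR4-K730R and from 0% to 55.9% in TLR4-K810R. These exons were singled out after their values were seen, and the 2 upstream exons do not overlap the annotated gene and did not enter its level, which was set by the last exon (chr9:52109575-52116802). With first exons that overlap the span alone, the rise of Zc3h12c in TLR4-K810R was 0.82 (adjusted p = 0.0311) and was no longer called, and that in TLR4-K730R was 1.01 (adjusted p = 0.00828), beside 1.93 in TLR4-WT (adjusted p = 4.44e-05).

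**Figure D2:**
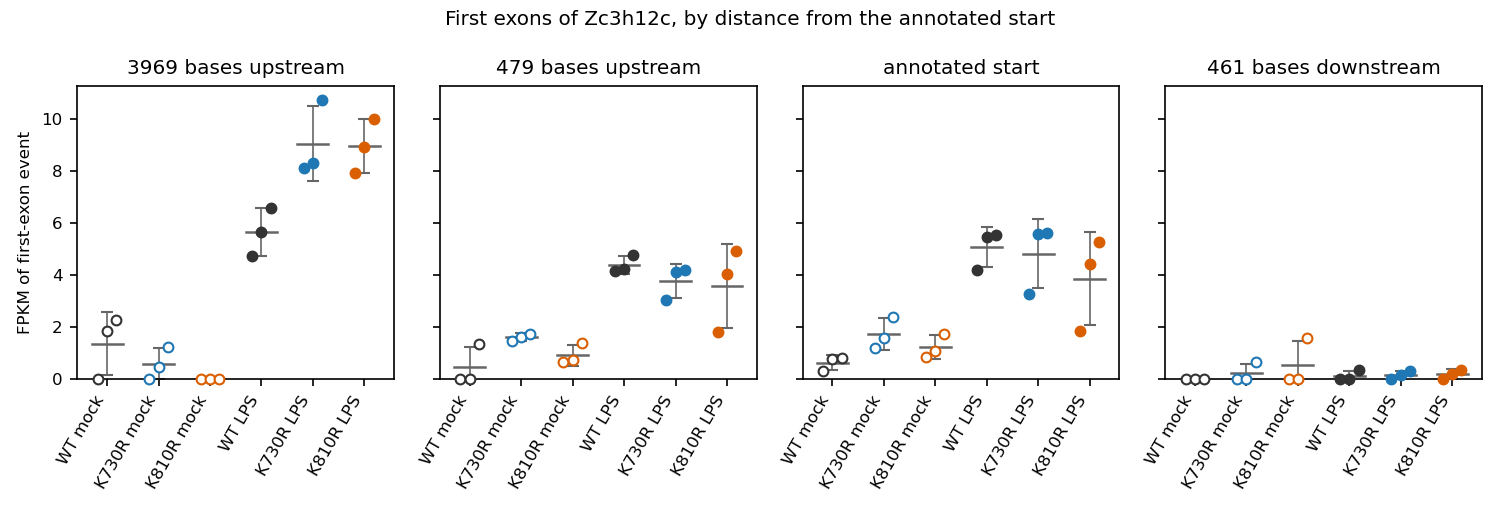
FPKM of the 4 first exons listed for Zc3h12c (common linear axis from 0), by distance from the annotated start, in the 6 groups, with open points for mock-treated and filled points for LPS-treated libraries, and lines and bars for the mean and SD of 3 libraries, cut at 0. The exon 3969 bases upstream holds the highest values, 4.74 to 10.7 FPKM with LPS, and is at 0 in all 3 mock-treated TLR4-K810R libraries.

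N4bp1 (ENSMUSG00000031652, chr8:86808160-86885258, minus strand) had the smallest rise of the 3 ribonucleases. In TLR4-WT it was 10.6, 9.26 and 9.14 FPKM without LPS and 28.8, 29.9 and 23.3 FPKM with LPS. In TLR4-K730R it was 9.83, 10.9 and 9.20 FPKM without LPS and 22.6, 20.8 and 29.0 FPKM with LPS. In TLR4-K810R it was 8.35, 7.50 and 7.77 FPKM without LPS and 17.1, 20.4 and 18.5 FPKM with LPS. The TLR4-K810R libraries were the lowest of the 3 genotypes under both treatments, and all of them lay below all TLR4-WT libraries of the same treatment. The rise was 1.41 (SE 0.132, adjusted p = 3.33e-07) in TLR4-WT, 1.19 (adjusted p = 2.12e-06) in TLR4-K730R and 1.15 (adjusted p = 3.70e-06) in TLR4-K810R. The ratio of group means was 2.83, 2.42 and 2.38, respectively. A second, internal first exon of N4bp1 (chr8:86851625-86852420) was listed in 6 LPS-treated and 3 mock-treated libraries and held at most 0.695 FPKM.

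Rc3h1 (ENSMUSG00000040423, chr1:160906418-160974978, plus strand), the gene of Roquin-1, was low in every group and lower on average with LPS. In TLR4-WT it was 3.39, 5.92 and 2.81 FPKM without LPS and 2.19, 1.48 and 2.85 FPKM with LPS. In TLR4-K730R it was 3.45, 3.45 and 4.06 FPKM without LPS and 2.45, 1.82 and 1.97 FPKM with LPS. In TLR4-K810R it was 5.05, 3.19 and 3.55 FPKM without LPS and 2.84, 1.81 and 3.83 FPKM with LPS. The groups separated in TLR4-K730R, as they did for 58.8% of all genes there, and overlapped in the other 2 genotypes, and the widest gap between libraries of 1 group was set by TLR4-WT mock replicate 2. The difference was -0.64 (SE 0.241, adjusted p = 0.0387) in TLR4-WT, -0.60 (adjusted p = 0.0516) in TLR4-K730R and -0.38 (adjusted p = 0.225) in TLR4-K810R, none past the threshold of 0.01. Leaving out 1 library moved the TLR4-WT value to between -0.82 (without mock replicate 3) and -0.39 (without mock replicate 2). The TLR4-K730R value stayed between -0.68 and -0.54. The TLR4-K810R value ranged from -0.57 to -0.18 (without LPS replicate 2), and was -0.22 without mock replicate 1.

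Nearly all of this value came from first exons, since a last exon of Rc3h1 was listed in 1 library only. The annotated first exon (chr1:160906418-160906699) was listed in all libraries, at 2.19 to 3.75 FPKM without LPS (median 2.86) and 1.0003 to 2.43 FPKM with LPS (median 1.77). A downstream first exon (chr1:160930024-160930344) was listed in 8 libraries and absent from the lists of the others, reaching 2.81 FPKM without LPS and 2.77 FPKM with LPS. The annotated exon varied less between libraries, with SDs of 0.575 and 0.478 FPKM over the 9 libraries of each treatment, than the downstream exon, with 1.12 and 1.04.

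Rc3h2 (ENSMUSG00000075376, chr2:37370069-37422903, minus strand), the gene of Roquin-2, was near the limit of the filter, with at least 1 FPKM in 12 of 18 libraries. In TLR4-WT it was 1.29, 0.608 and 1.16 FPKM without LPS and 1.02, 1.37 and 1.52 FPKM with LPS. In TLR4-K730R it was 2.42, 0.723 and 2.13 FPKM without LPS and 1.70, 1.03 and 0.564 FPKM with LPS. In TLR4-K810R it was 0.682, 1.42 and 3.32 FPKM without LPS and listed at 0, 1.11 and 0.774 FPKM with LPS. Libraries of both treatments overlapped in every genotype. The difference was 0.20 (95% interval -0.56 to 0.96) in TLR4-WT, -0.37 (-1.13 to 0.39) in TLR4-K730R and -0.74 (-1.51 to 0.018) in TLR4-K810R, with adjusted p of 0.670, 0.413 and 0.111. These values rested on single libraries. In TLR4-WT the value was 0.047 without mock replicate 2 and 0.13 without LPS replicate 3, and in TLR4-K730R it ranged from -0.68 without mock replicate 2 to -0.17 without LPS replicate 3. The TLR4-K810R value was -0.43 without LPS-treated replicate 1 and -0.38 without mock-treated replicate 3. The library listed at 0, TLR4-K810R LPS replicate 1, still listed an internal Rc3h2 event (chr2:37378521-37378858) at 1.71 FPKM, so its 0 reflects unlisted end exons and not a measured absence.

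**Figure D3:**
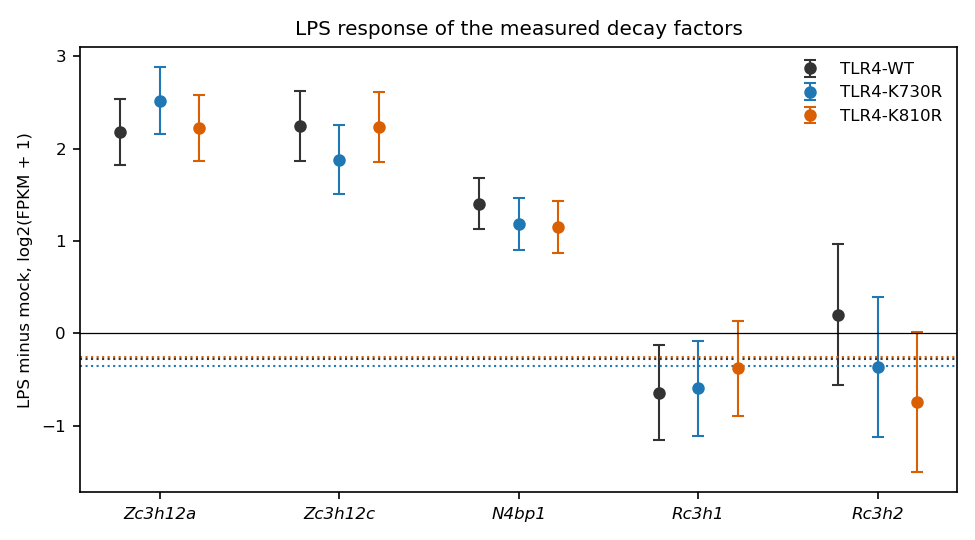
Difference between LPS-treated and mock-treated libraries in log2(FPKM + 1) for the 5 measured decay factors in the 3 genotypes, with points for the limma estimate and bars for its 95% interval. Dotted lines mark the median over all genes tested, -0.28 (TLR4-WT), -0.36 (TLR4-K730R) and -0.26 (TLR4-K810R). The ribonuclease genes lie between 1.15 and 2.52. The intervals of the Roquin genes include 0, except those of Rc3h1 in TLR4-WT (-1.16 to -0.13) and TLR4-K730R (-1.11 to -0.084). Neither of these differences passed the adjusted threshold.

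More genes fell than rose after LPS, and the split depended on how libraries were scaled. In TLR4-WT 1012 genes were called higher and 2316 lower as deposited, against 1493 and 1380 after median-of-ratios scaling, which moved the median over all genes from -0.28 to -0.02. The corresponding counts were 905 and 2568 against 1483 and 1310 in TLR4-K730R, and 881 and 1916 against 1194 and 1135 in TLR4-K810R. Relative to the median of all genes, Zc3h12a rose by 2.46, 2.88 and 2.48 in TLR4-WT, TLR4-K730R and TLR4-K810R, Zc3h12c by 2.52, 2.24 and 2.49, and N4bp1 by 1.68, 1.54 and 1.41. For Rc3h1 the same quantity was -0.37, -0.24 and -0.12, and for Rc3h2 0.48, -0.01 and -0.48. Under the scaling all 3 ribonucleases remained called in each genotype and Rc3h1 in TLR4-WT was at -0.405 (adjusted p = 0.186).

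The order of the 5 levels changed between treatments. Without LPS, Zc3h12a and N4bp1 were highest in all 3 genotypes and their libraries overlapped. Rc3h1 and Zc3h12c followed, with overlapping libraries in TLR4-WT and TLR4-K730R and Rc3h1 above Zc3h12c in TLR4-K810R, and Rc3h2 was lowest by mean, with libraries that overlapped those of Zc3h12c in TLR4-K810R. With LPS the order was Zc3h12a, N4bp1, Zc3h12c, Rc3h1 and Rc3h2 in all 3 genotypes. Neighbours in that order did not overlap, except N4bp1 and Zc3h12c in TLR4-K810R and Rc3h1 and Rc3h2 in TLR4-WT.

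The comparisons of each mutant with TLR4-WT ask whether the lysines of TLR4 matter for the decay factors. Both mutants were compared with the same TLR4-WT libraries. Without LPS, 0 of the 5 decay factors were called in TLR4-K730R and 0 in TLR4-K810R, beside 0.268% (0.0515% higher and 0.216% lower) and 1.58% (0.927% higher and 0.649% lower) of all genes tested by limma. With LPS, 0 were called in TLR4-K730R and 0 in TLR4-K810R, beside 0% and 0.134% (0.0515% higher and 0.0824% lower) of all genes, by limma. At an unadjusted p below 0.05 there was 1 decay factor in each comparison except TLR4-K810R without LPS, which had 0. Over all 9707 genes the same count was 747 (TLR4-K730R) and 1366 (TLR4-K810R) without LPS, and 746 and 2118 with LPS. All-gene calls with LPS in TLR4-K810R split into 5 higher and 8 lower, or 4 and 15 after median-of-ratios scaling.

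The nearest of these was N4bp1 in TLR4-K810R. With LPS its mean was 18.7 ± 1.65 FPKM (SD, n = 3) in TLR4-K810R and 27.4 ± 3.54 in TLR4-WT, and the groups did not overlap. The difference was -0.52 (SE 0.132, 95% interval -0.80 to -0.24, adjusted p = 0.0524, limma). For 25.3% of genes tested the libraries of these groups did not overlap. Without LPS the means were 7.87 ± 0.436 and 9.66 ± 0.806 FPKM, a difference of -0.26 (95% interval -0.54 to 0.018, adjusted p = 0.396). Groups did not overlap there either, which held for 20.8% of genes. With libraries weighted by their quality, the difference with LPS was -0.56 (adjusted p = 0.00800) and was called. In TLR4-K730R the difference of N4bp1 from TLR4-WT was -0.18 with LPS (95% interval -0.46 to 0.10) and 0.04 without (-0.24 to 0.32). Leaving out 1 library moved the former to between -0.31 (without TLR4-K730R replicate 3) and -0.084 (without TLR4-K730R replicate 2), and it was -0.11 without TLR4-WT replicate 2 and -0.29 without TLR4-WT replicate 3.

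The Regnase genes showed their largest uncalled differences in TLR4-K730R. Zc3h12c without LPS was 4.12 ± 0.686 FPKM in TLR4-K730R and 2.45 ± 0.526 in TLR4-WT, with all TLR4-K730R libraries above all TLR4-WT libraries, a separation found for 16.4% of genes. The difference was 0.57 (SE 0.177, adjusted p = 0.329, limma). With LPS the difference was 0.21 (95% interval -0.17 to 0.59). Zc3h12a with LPS was 63.6 ± 6.44 FPKM in TLR4-K730R and 49.8 ± 10.4 in TLR4-WT, and the libraries overlapped. The difference was 0.36 (95% interval 0.0011 to 0.72, adjusted p = 0.649, limma), or 0.20 without TLR4-WT LPS replicate 1. Without LPS it was 0.02 (-0.34 to 0.38). In TLR4-K810R the Zc3h12a difference was -0.13 (-0.49 to 0.23) without LPS and -0.09 (-0.45 to 0.27) with LPS, and the Zc3h12c difference 0.10 (-0.28 to 0.47) and 0.08 (-0.29 to 0.46).

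For Rc3h1 the genotype differences lay between -0.07 and 0.26, and their 95% intervals reached from -0.58 to 0.77. For Rc3h2 they lay between -0.56 and 0.40, with intervals from -1.33 to 1.17, the widest of the measured decay factors. Marker genes of other cell types were summed in each group. The summed level of 7 mesothelial and fibroblast genes was 16.9 to 30.4 FPKM in mock-treated TLR4-WT, 36.5 to 43.5 in TLR4-K730R and 73.6 to 192 in TLR4-K810R libraries, and 27.4 to 93.9, 29.7 to 30.9 and 65.3 to 77.1 FPKM after LPS. Of these genes Wt1, Col1a1 and Dcn were called higher in mock-treated TLR4-K810R, and 0 were called in the other comparisons with TLR4-WT. The summed level of 6 intestinal epithelium genes was 0.118 to 0.594 FPKM in mock-treated TLR4-WT, 6.498 to 35.3 in TLR4-K730R and 9.80 to 50.5 in TLR4-K810R, and Fabp1 was called higher in the last of these (adjusted p = 0.00969), though not after median-of-ratios scaling (adjusted p = 0.0182). Fabp1 was listed at 0 in all 3 mock-treated TLR4-WT libraries, so no fold is given. After LPS that sum was 0 to 10.6, 8.42 to 12.9 and 0.127 to 4.61 FPKM. Among neutrophil genes, S100a9 was called higher in LPS-treated TLR4-K810R (1.42, adjusted p = 0.00850), at 1.63 to 2.23 FPKM against 0 to 0.2196 in TLR4-WT, and Mmp8 was 12.4 to 14.6 against 5.40 to 8.31 FPKM there. S100a8, the most abundant gene of this list, was 165 to 192 against 186 to 239 FPKM, and the summed level of the 5 genes was 181 to 206 against 191 to 248 FPKM. Mock-treated libraries had neutrophil sums of 30.6 to 44.8 FPKM in TLR4-WT, 46.2 to 52.4 in TLR4-K730R and 53.2 to 62.9 in TLR4-K810R. Of 3 neutrophil genes tested, 0 were called in the mock-treated comparisons with TLR4-WT. Mast cell genes summed to 4.16 to 4.42 FPKM in mock-treated TLR4-WT, 0.423 to 2.58 in TLR4-K730R and 0.797 to 2.22 in TLR4-K810R, and 0 of the 3 tested were called in any comparison of genotypes. In bulk RNA, a change in the number of cells of a type and in RNA per cell cannot be told apart, and the part of these cells in the N4bp1 and Zc3h12c values was not tested.

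**Figure D4:**
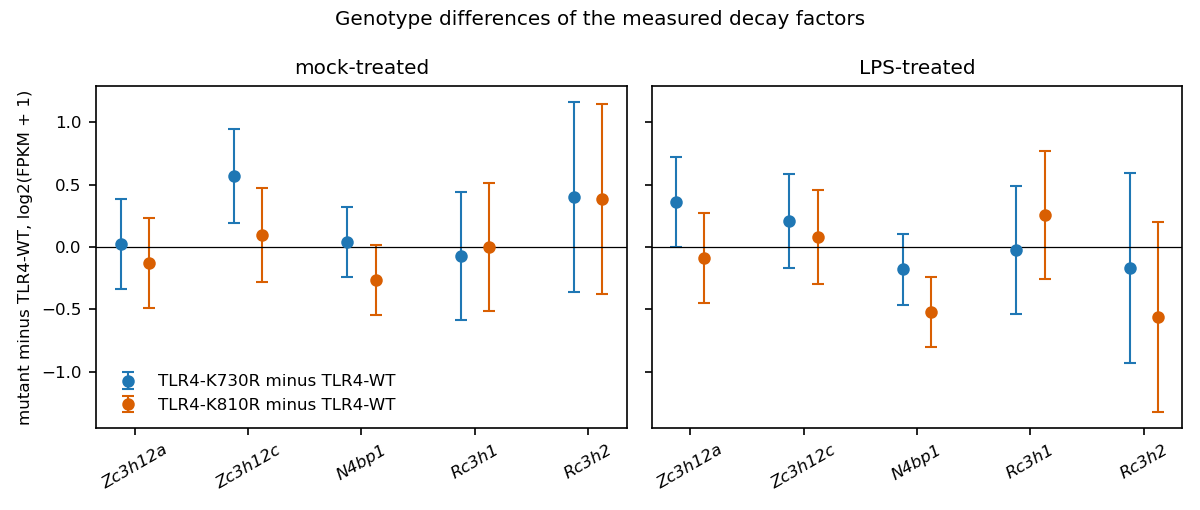
Difference of TLR4-K730R and TLR4-K810R from TLR4-WT in log2(FPKM + 1) for the 5 measured decay factors, mock-treated on the left and LPS-treated on the right, with limma estimates as points and 95% intervals as bars. The interval of N4bp1 in LPS-treated TLR4-K810R macrophages, -0.80 to -0.24, and that of Zc3h12c in mock-treated TLR4-K730R macrophages lie clear of 0, and neither difference passed the adjusted threshold.

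Whether a mutation changed the size of the LPS response was tested as the difference between responses, and 0 of the 5 decay factors were called in either mutant by limma, beside 0.0412% of all genes in TLR4-K730R, all of them higher, and 0.124% in TLR4-K810R (0.103% higher and 0.0206% lower). None had an unadjusted p below 0.05. For Zc3h12a the response in TLR4-K730R exceeded that in TLR4-WT by 0.34 (95% interval -0.17 to 0.85), and the TLR4-K810R response differed by 0.04 (-0.47 to 0.55). For Zc3h12c the differences were -0.36 (-0.90 to 0.17) and -0.01 (-0.55 to 0.52), and with first exons alone they were -0.92 (adjusted p = 0.725) and -1.11 (adjusted p = 0.257). For N4bp1 they were -0.22 (-0.62 to 0.18) and -0.26 (-0.65 to 0.14). The TLR4-K730R value of Zc3h12a was 0.18 without TLR4-WT LPS replicate 1, and that of N4bp1 -0.12 without TLR4-K730R LPS replicate 2 and -0.35 without its replicate 3. The intervals allow a response in the mutants that is larger or smaller by these amounts. For Rc3h2 in TLR4-K810R the difference was -0.95 (-2.02 to 0.13, adjusted p = 0.446), with the library listed at 0 included, and it was -0.63 without that library and -0.58 without mock-treated replicate 3.

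Among enzymes that act on the decay factors, the members that passed the test all rose. The list held 13 kinases, proteases and phosphatases, such as MALT1, the protease that cleaves Regnase-1 and N4BP1, and MK2 (Mapkapk2), the kinase that inactivates tristetraprolin. Of 12 tested, 6 (TLR4-WT), 7 (TLR4-K730R) and 4 (TLR4-K810R) were called higher and 0 were called lower, against 10.4%, 9.32% and 9.08% called higher among all genes. After median-of-ratios scaling 8, 9 and 7 were called higher, against 15.4%, 15.3% and 12.3% of all genes. Their median difference was 0.81, 0.72 and 0.41 in this order. Malt1 went from 13.6 ± 0.841 to 102 ± 5.56 FPKM in TLR4-WT, a rise of 2.82 (adjusted p = 1.03e-10), and rose by 2.48 in TLR4-K730R and 3.13 in TLR4-K810R. Ikbke, which encodes the kinase IKKε, rose by 1.52, 1.16 and 1.31 in the same order, and Mapkapk2 by 1.23, 1.28 and 1.45.

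The general decay machinery was counted against all genes, of which 34.3%, 35.8% and 28.8% were called in TLR4-WT, TLR4-K730R and TLR4-K810R. By direction, 10.4%, 9.32% and 9.08% of all genes were called higher and 23.9%, 26.5% and 19.7% lower. Among 17 genes of the CCR4-NOT and PAN2-PAN3 deadenylases, 15 were tested, 0 were called higher, and 2, 3 and 2 were called lower in TLR4-WT, TLR4-K730R and TLR4-K810R. The 2 in TLR4-WT were Tob1, an adaptor of the deadenylase, which was 2.82 ± 0.164 FPKM without LPS and listed at 0 in all 3 LPS-treated libraries (adjusted p = 7.20e-06; without read counts a listed 0 can be an unlisted event, so no fold is given), and Cnot6l, a catalytic subunit, which fell by 1.35 (adjusted p = 0.000316), from 10.999 to 3.83 FPKM. Of 10 tested genes of decapping and 5′ to 3′ decay, 2 rose in TLR4-WT: Dcp2, the decapping enzyme, by 0.85 (adjusted p = 0.000402), and its partner Dcp1a by 0.77 (adjusted p = 0.00880). Only Dcp2 was called in TLR4-K730R (0.59, adjusted p = 0.00604), and neither was called in TLR4-K810R, where the values were 0.49 and -0.0048. The differences between the Dcp1a responses of the mutants and of TLR4-WT, -0.77 and -0.78, were not called (adjusted p = 0.647 and 0.296). In TLR4-WT the median was -0.07 over the deadenylases and 0.03 over the decapping genes, beside -0.28 over all genes. After median-of-ratios scaling, 3, 2 and 1 of the decapping genes were called higher, against 15.4%, 15.3% and 12.3% of all genes. Of the deadenylase genes 1 was then called higher in TLR4-WT, and 2, 1 and 2 were called lower, against 14.2%, 13.5% and 11.7% of all genes.

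Among 9 tested genes of other AU-rich element binding proteins, 1 was called in each genotype, higher each time, which is near the 10.4%, 9.32% and 9.08% called higher among all genes. It was Arid5a, whose protein stabilises Il6 mRNA and opposes Regnase-1. Arid5a was 6.999 FPKM without and 15.7 FPKM with LPS in TLR4-WT and rose by 1.07 there (adjusted p = 0.00346), by 1.98 in TLR4-K730R (adjusted p = 1.33e-05) and by 1.23 in TLR4-K810R (adjusted p = 0.00140). The difference between the TLR4-K730R and TLR4-WT responses, 0.92, was not called (adjusted p = 0.647). In the 4 comparisons of a mutant with TLR4-WT, 0 genes of these 4 lists were called.

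A list of known targets of the decay factors, picked as LPS-induced genes, was read in the same way. Of its 22 transcripts, 19 were tested, and 17 (TLR4-WT), 17 (TLR4-K730R) and 15 (TLR4-K810R) rose, with 0 called lower, beside 10.4%, 9.32% and 9.08% of all genes called higher. Their median difference was 3.96, 4.16 and 3.597, respectively. Il1b, which encodes interleukin-1β, went from 2.49 to 1613 FPKM in TLR4-WT, a rise of 8.85 (adjusted p = 1.41e-12), and Lcn2, which encodes lipocalin-2, from 1.203 to 328 FPKM, a rise of 7.21. Il1a rose by 5.97. Tnf rose by 3.96 (TLR4-WT), 3.93 (TLR4-K730R) and 4.28 (TLR4-K810R). In TLR4-WT, Icosl, a ligand for T cell costimulation, differed by 0.72 (adjusted p = 0.0143) and Nfkbid, which encodes an inhibitor of NF-κB, by -0.33 (adjusted p = 0.161), and neither was called.

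Targets rose with and without an AU-rich core. All 14 tested targets that held TATTTAT rose in TLR4-WT, and so did 3 of the 5 that did not hold it. Lcn2, whose 3′ untranslated region has 232 bases and no copy of TATTTAT or TTCNNNGAA, rose more than Tnf. Because of how these targets were picked, their rise is a description. In the comparisons of each mutant with TLR4-WT and in the differences between responses, 0 of the 19 were called, beside at most 1.58% of all genes. The nearest was Il12b, which encodes a subunit of interleukin-12, in LPS-treated TLR4-K810R. It was 3.21 to 6.17 FPKM there and 10.1 to 13.2 FPKM in TLR4-WT, a difference of -1.23 (adjusted p = 0.0117), and after median-of-ratios scaling it was called lower, at -1.37 (adjusted p = 0.00401).

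**Figure D5:**
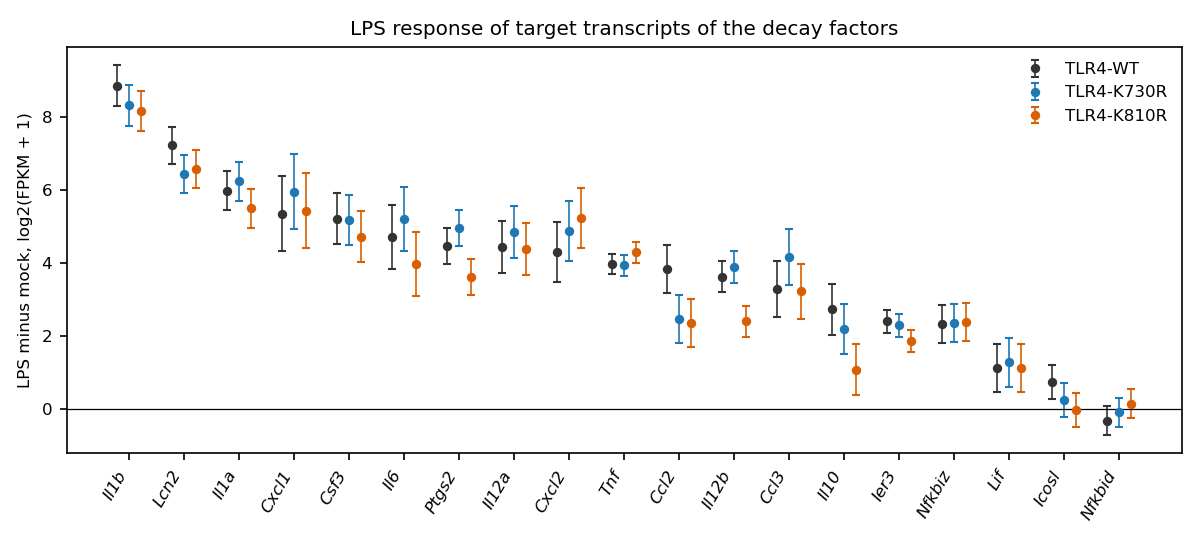
Difference between LPS-treated and mock-treated libraries in log2(FPKM + 1) for 19 tested target transcripts, ordered by their value in TLR4-WT, with limma estimates as points and 95% intervals as bars for the 3 genotypes. The values run from 8.85 for Il1b to -0.33 for Nfkbid in TLR4-WT.

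Across the 18 libraries, the genes whose log2 level followed Zc3h12a most closely were Il12a (Pearson r = 0.990), Nfkb2 (0.989) and Dusp16 (0.989). For Zc3h12c they were Nfkbia (0.989), Ccrl2 (0.986) and Mapkapk2 (0.985), and for N4bp1 Trim21 (0.985), Car2 (0.983) and Slfn4 (0.980). These libraries fall into 9 with and 9 without LPS, which all of these coefficients share, so they describe the common LPS difference. The closest genes to Rc3h1 reached 0.886 (Dph7), 0.880 (Cers2) and 0.880 (Gxylt1), and those to Rc3h2 only 0.752 (Phf21a), 0.750 (Cdc27) and 0.745 (Zfp677).

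Markers of other leukocytes were measured beside the rise of the ribonuclease genes. The summed level of 5 neutrophil genes went from 30.6 to 62.9 FPKM in the mock-treated libraries to 181 to 248 FPKM with LPS, of which S100a8 made 22.1 to 45.1 and 165 to 239 FPKM. Mmp8 was 8.49 to 20.6 FPKM without LPS and 4.97 to 14.6 FPKM with LPS, and S100a9, Ly6g and Ngp did not exceed 2.23, 0.644 and 0.121 FPKM. The part of neutrophils in the LPS responses was not tested. The summed level of 4 T cell genes was at most 0.958 FPKM in any library. Of 4 mast cell genes listed, the sum stayed at or below 4.61 FPKM.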

How the data were processed

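Total RNA of 18 libraries (6 groups of 3) was sequenced on an Illumina instrument by a commercial provider. The authors deposited FPKM values per transcript event, of 20 event types and 80071 to 90401 rows per library, normalized for length and library size. The aligner and quantifier are not given in the sources used here. The processing notes name a human build, but 92.8% of rows with a gene identifier overlap that gene in GENCODE release M21 of GRCm38, which was used for coordinates and 3′ untranslated regions. Depth is unknown because no counts are given.

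The level of a gene was the FPKM summed over first exons or over last exons, whichever was larger, from rows on its strand that overlapped its span, which dropped 5.99% of that FPKM. The 9707 genes that reached 1 FPKM in 3 or more libraries entered a limma fit (version 3.58.1, R version 4.3.3) on log2(FPKM + 1), a pseudocount of 1, with an intensity trend, all 6 groups in 1 fit and Benjamini-Hochberg adjustment over all genes for each of 9 comparisons. The threshold of 0.01 is that of the study. The code was tested on simulated data. Other steps used Python 3.11.15 with pandas 2.3.3. Alternatives changed the pseudocount, scaling, filter, value per gene, trend, threshold, weights of libraries, a replicate block, which groups shared a fit, and each library in turn.

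The 8 genes and all gene lists were chosen with earlier results of these data known. Named genes were the 8, Tlr4, up to 3 called members per list with the largest TLR4-WT response, and the 3 genes most correlated with each measured decay factor. First exons of Zc3h12c were chosen after their values were seen, and so were Tnf, Il12b, the marker genes, the uncalled targets and the transcripts whose sequences are shown. Eosinophil markers summed to at most 0.022 FPKM, and dendritic cell markers to at most 1.96 FPKM without LPS and 3.03 to 5.76 FPKM with LPS. Of 4 dendritic cell markers listed only 2 had a value, Zbtb46 and Ccr7, at up to 1.63 and 4.95 FPKM. The result of 1 further marker list is not reported here.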

Additional observations from a re-analysis of the deposited data

Results flagged for a closer look

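Both first exons of Zc3h12c that lie upstream of the annotated gene were left out of its level and carried signal after LPS above that in every mock-treated library. For the exon that begins 3969 bases upstream, the lowest of the 9 LPS-treated libraries had 4.74 FPKM and the highest of the 9 mock-treated libraries 2.26 FPKM. For the exon that begins 479 bases upstream, the lowest LPS-treated library had 1.80 FPKM and the highest mock-treated one 1.75 FPKM, a gap of less than the spread within either treatment.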

How the results depend on the processing

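The 3 called rises of Zc3h12a, Zc3h12c and N4bp1 kept their direction under all alternatives and their call under all but 1: with first exons that overlap the span alone, Zc3h12c in TLR4-K810R was at 0.82 (adjusted p = 0.0311), and its called value in TLR4-K730R was 1.01. With a pseudocount of 5, Zc3h12c was at 1.44 in TLR4-WT and 1.47 in TLR4-K810R. With library weights, 1 of the 8 decay factors, N4bp1, was called in TLR4-K810R against TLR4-WT with LPS. At an adjusted p below 0.05, Rc3h1 in TLR4-WT after LPS was also called. Median-of-ratios scaling raised the count of risen kinases, proteases and phosphatases in TLR4-K810R from 4 to 7 and called 1 target, Il12b, lower in TLR4-K810R with LPS, while the marker Fabp1 was no longer called in mock-treated TLR4-K810R. With a filter at 5 FPKM neither Rc3h1 nor Rc3h2 was tested, and with last exons alone Rc3h1 was not tested. Without read counts the precision of a single value is unknown, and Rc3h2 lies near the filter.

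The replicate numbers did not pair the libraries: residuals of same-numbered libraries correlated at -0.32 to 0.10, with 0 of 45 pairs over 0.1. With a replicate block, 3 decay factors were called after LPS in each genotype and 0 in every other comparison, as without the block.

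Some uncalled differences changed sign, and the cause was not tested. With first exons alone, Rc3h2 was at 0.018 for the LPS response in TLR4-K810R and -0.54 for TLR4-K810R minus TLR4-WT without LPS, and Zc3h12c at -0.062 for TLR4-K730R and -0.37 for TLR4-K810R minus TLR4-WT with LPS. With library weights, N4bp1 was at -0.0069 (TLR4-K730R without LPS), Rc3h1 at 0.10 (TLR4-K810R without LPS) and 0.043 (TLR4-K730R with LPS), Rc3h2 at 0.038 (TLR4-K730R with LPS) and Zc3h12a at 0.012 (TLR4-K810R with LPS). With median-of-ratios scaling, Rc3h1 was at 0.020 (TLR4-K730R with LPS), Zc3h12c at -0.063 (TLR4-K810R with LPS) and the TLR4-K810R response difference of Zc3h12a at -0.025. With the largest single event, an alternative chosen after seeing the data, Rc3h1 was at 0.066 (TLR4-K810R without LPS) and its TLR4-K730R response difference at -0.021. With a pseudocount of 0.1, Rc3h1 was at 0.0041 (TLR4-K810R without LPS), and with 5 the TLR4-K810R response difference of Zc3h12c was at 0.03.

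Leaving out each library in turn, signs changed for these uncalled differences from TLR4-WT. Without LPS, TLR4-K730R ranged from -0.018 to 0.10 for N4bp1, -0.25 to 0.18 for Rc3h1 and -0.040 to 0.083 for Zc3h12a, and TLR4-K810R from -0.18 to 0.25 for Rc3h1. With LPS, TLR4-K730R ranged from -0.19 to 0.13 for Rc3h1 and -0.37 to 0.028 for Rc3h2, and TLR4-K810R from -0.045 to 0.31 for Zc3h12c and -0.25 to 0.10 for Zc3h12a. Response differences ranged from -0.21 to 0.22 for Rc3h1 in TLR4-K730R, and in TLR4-K810R from -0.14 to 0.21 for Zc3h12c and -0.12 to 0.23 for Zc3h12a.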
